A study of Mus musculus with 48 samples.

Results

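Open chromatin of monocytes was compared with that of their own progenitors in 5 clones of mouse ER-Hoxb8 myeloid cells, clones 16, 18, 20, 21 and 25. These are the clones numbered above 13 whose monocyte list and progenitor list both held at least 10000 peaks, and they gave 10 of the 48 libraries of the series. They are called late clones here because of their numbers, which carry no stated time or order. Clones 1 to 13, with 26 libraries, served as the set in which stage differences were first found, and no library was shared between the sets. The question was which stage differences of clones 1 to 13 recurred in the late clones.

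ER-Hoxb8 cells are mouse bone marrow progenitors that a Hoxb8 protein fused to the oestrogen receptor keeps from maturing, and they mature once the fusion protein is switched off. The groups were monocytic cells (titled Minus) and cells of the granulocyte-monocyte progenitor type (GMP, titled Plus). The labels describe both with 1 growth medium, RPMI with serum, penicillin/streptomycin and stem cell factor (SCF), and do not describe how the monocytic cells were matured. Each clone gave 1 library per stage, and the series design pairs the libraries by clone. P-values over clones therefore measure the spread between clones, with the technical spread between libraries in it.

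In ATAC-seq a transposase inserts adapters where DNA is not covered by nucleosomes, so that peaks mark promoters, enhancers and other exposed elements. Promoters of broadly used genes are exposed in most cell types, whereas many enhancers open or close as a progenitor matures. A bulk peak cannot tell a site that is open in fewer cells apart from a site that is less open in every cell.

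Late monocyte lists were shorter than the progenitor lists of the same clones. They held 11191, 10966, 38786, 17591 and 15260 peaks in clones 16, 18, 20, 21 and 25, against 122638, 129000, 102715, 33185 and 22332 peaks in the progenitor lists of the same clones. Monocyte lists were the shorter ones in 5 of 5 clones, and the ratio of progenitor over monocyte geometric means was 3.93 (paired exact permutation p = 0.0625, two-sided, the smallest that 5 pairs allow). In clones 1 to 13 the ratio was 2.65, with the monocyte list shorter in 12 of 13 clones. Their monocyte lists held 13606 to 32285 peaks, so those of clones 16 and 18 lay below that range, those of clones 21 and 25 within it and that of clone 20 above it. The authors' first score lay on an even ladder of values in each list, and 1 step of it was read as 1 tag. On that reading the depth of the late libraries, relative to the median of the 36 libraries, was 0.690, 0.653, 1.15, 0.775 and 1.43 in monocytes and 2.04, 3.17, 2.32, 0.129 and 0.0894 in progenitors. Clones 21 and 25 thus had the shallower library on the progenitor side and the other 3 clones on the monocyte side. The 10000th peak held 9, 10, 15, 13 and 19 tags in the late monocyte lists and 238, 349, 256, 18 and 12 tags in the late progenitor lists.

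The stage labels were checked against clones 1 to 13. For each list the 10000 peaks with the best first scores were taken, peaks of all cut lists that overlapped by at least 1 bp were joined into regions, and lists were compared by the Jaccard index, the regions shared over the regions held by either list. Late monocyte lists had a mean index of 0.290, 0.583, 0.230, 0.342 and 0.482 to the 13 monocyte lists of clones 1 to 13, and of 0.278, 0.492, 0.228, 0.325 and 0.414 to their 13 progenitor lists. Late progenitor lists had 0.557, 0.659, 0.701, 0.538 and 0.601 to the monocyte lists and 0.636, 0.706, 0.773, 0.592 and 0.631 to the progenitor lists. Every late list was nearer to the lists of its own labelled stage. The monocyte list of clone 20 was nearer by 0.00263 only, and its ranks over shared regions (described below) went the other way, with Spearman's rho of 0.434 to the monocyte mean and 0.443 to the progenitor mean of clones 1 to 13 across 3014 regions. The difference between the indices, monocyte minus progenitor, was higher in monocyte than in progenitor libraries by 0.0945 on average (paired exact permutation p = 0.0625, the smallest possible; 0.00794 without pairing). Marker genes were not used for this check, because the peaks are in mm9 coordinates and no mm9 annotation was used here.

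Late monocyte lists differed from late progenitor lists in what they contained, that of clone 18 the least. Of their regions 49.0%, 13.1%, 55.8%, 42.8% and 22.7% were in no list of clones 1 to 13, against 5.29%, 1.76%, 0.313%, 8.79% and 6.71% of the regions in the late progenitor lists. The stages did not overlap in this share. Most of those monocyte regions were private, since 37.6%, 7.84%, 41.3%, 31.8% and 15.2% of each monocyte list lay in no other list of the 36. In clones 1 to 13 the highest private share was 7.55%, in the progenitor list of clone 11, close to that of clone 18. A set of 5054 regions was in all 26 lists of clones 1 to 13, that is, in both stages of every clone there. All 5 late monocyte lists held 2080 of them and all 5 late progenitor lists held 4468. Clones 18 and 25 had the monocyte lists most like those of clones 1 to 13, and clones 16, 20 and 21 the least like. What set clones 16, 20 and 21 apart was not tested.

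**Figure D1:**
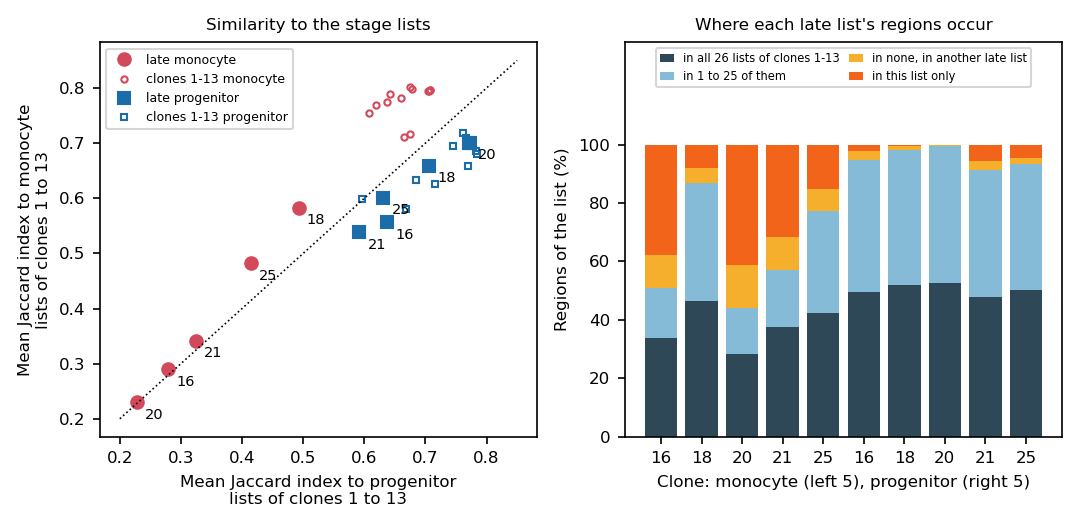
Left, mean Jaccard index of each list of 10000 peaks to the monocyte lists (vertical) and progenitor lists (horizontal) of clones 1 to 13; filled symbols are late libraries with their clone number, open symbols clones 1 to 13, and the dotted line marks equal similarity. Right, percent of each late list's regions by where else they occurred. The late monocyte lists of clones 16, 20 and 21 lie lowest on both axes and hold 42.8% to 55.8% of regions seen in no list of clones 1 to 13.

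Presence in the cut lists was then compared between the stages within the late clones. Of 35174 regions, 11411 were held by at least 3 of the 10 late lists and were tested. Fisher's exact test with Benjamini-Hochberg adjustment called 0 regions (0% of those tested) at an adjusted p under 0.05, and the smallest adjusted p was 0.0968. At an unadjusted p under 0.05, 407 regions (3.57%) were held by more monocyte lists and 2004 (17.6%) by more progenitor lists. The most extreme pattern the design allows, presence in 5 lists of 1 stage and 0 of the other, occurred for 163 regions in monocytes and 773 in progenitors, each with an exact p of 0.00794. Presence in 10 of 10 lists was found for 2071 regions. The late clones therefore called no region by presence on their own, and recurrence was read from regions called elsewhere.

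In clones 1 to 13 the same test called 970 regions held by more monocyte lists (7.81% of 12419 tested) and 692 held by more progenitor lists (5.57%). The progenitor-higher regions were absent from the late monocyte lists nearly as often as from those of clones 1 to 13. The late monocyte lists held 9.83%, 7.66%, 10.4%, 8.24% and 9.39% of the 692 regions, against 72.7%, 65.6%, 77.5%, 61.6% and 54.0% in the late progenitor lists. The stages did not overlap, and in clones 1 to 13 the same regions were held by 2.60% to 17.8% in monocyte lists and 40.5% to 94.7% in progenitor lists. Over all 12419 tested regions the late monocyte lists held 37.9%, 63.5%, 31.8%, 43.1% and 56.3%, so they lacked the progenitor-higher regions more than they lacked regions in general. In clones 16, 20 and 21 they also lacked the monocyte-higher regions more than regions in general, holding 22.1%, 12.3% and 25.6% of them. In those clones this comparison therefore cannot tell a loss of progenitor-higher regions from a loss of stage-called regions of both directions. Of the 692, 607 (87.7%) were in fewer late monocyte than late progenitor lists, 56 were in equal numbers and 29 in more, whereas 57.5% of all tested regions were in fewer monocyte lists. Absence from 5 monocyte lists with presence in 5 progenitor lists held for 152 of the 692 regions, against 5.96% of all tested regions. At an unadjusted exact p under 0.05, 297 of the 692 were in fewer late monocyte lists, against 14.8% of all tested regions.

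The monocyte-higher regions recurred mainly in clones 18 and 25. The late monocyte lists held 22.1%, 72.3%, 12.3%, 25.6% and 63.7% of the 970 regions in clones 16, 18, 20, 21 and 25, against 11.9%, 24.2%, 15.9%, 17.7% and 24.7% in the late progenitor lists. Clones 18 and 25 fell within the 49.3% to 94.7% seen in the monocyte lists of clones 1 to 13, and the other 3 clones fell below it. The monocyte list was the higher one in 4 of 5 clones, clone 20 being the exception. Set against their shares of all 12419 tested regions, the monocyte lists of clones 18 and 25 held more of the monocyte-higher regions than of regions in general, and those of clones 16, 20 and 21 held fewer. Regions held by the monocyte list alone outnumbered those held by the progenitor list alone by 523 to 57 in clone 18, 461 to 83 in clone 25, 190 to 91 in clone 16 and 197 to 121 in clone 21, and clone 20 had 98 against 133. In all, 625 of the 970 (64.4%) were in more late monocyte than progenitor lists, 181 in equal numbers and 164 in fewer, against 15.6% of all tested regions in more monocyte lists. At an unadjusted exact p under 0.05, 59 were in more late monocyte lists, against 1.04% of all tested regions. Only 9 were in 5 monocyte and 0 progenitor lists (0.225% of all tested regions were), and 335 were monocyte-only in both clone 18 and clone 25. Without clone 18 the share with more monocyte lists was 53.0%, and with clones 16, 18 and 20 alone it was 57.9%.

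**Figure D2:**
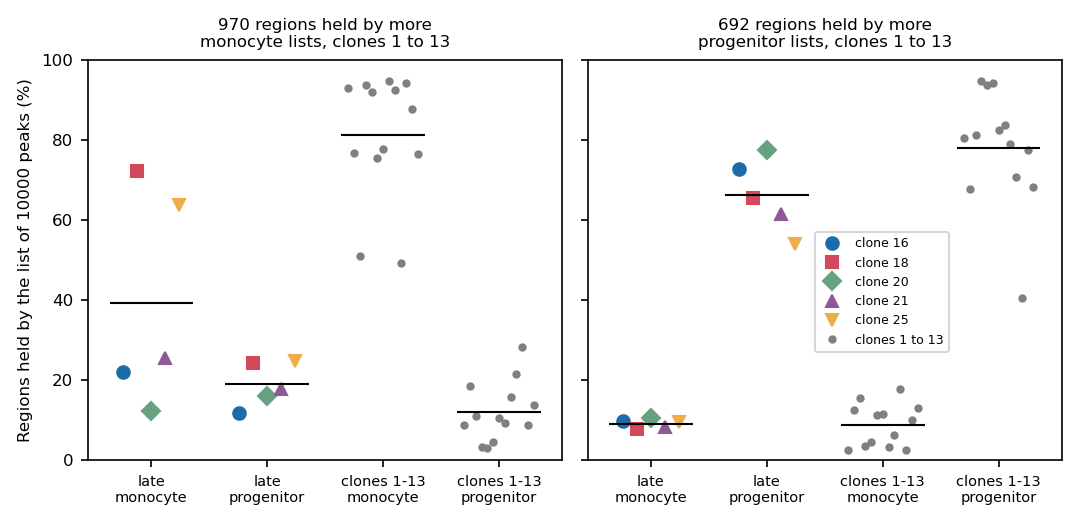
Percent of the monocyte-higher regions (left panel) and progenitor-higher regions (right panel) of clones 1 to 13 that each library's list of 10000 peaks held; coloured symbols are late clones, grey points clones 1 to 13, whose lists chose the regions, and bars are group means. Late monocytes hold 7.66% to 10.4% of the progenitor-higher regions, and of the monocyte-higher regions 12.3% to 72.3%, with clones 18 and 25 on top.

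Missing from a cut list does not mean missing from the library. In the lists as deposited, late progenitor libraries held 97%, 98.7%, 98.8%, 85.6% and 81.3% of the 970 monocyte-higher regions, so these regions were open in progenitors as lower peaks. The deposited late monocyte lists held 25.1%, 75.8%, 23.6%, 39.9% and 74.2% of the same regions. For the 692 progenitor-higher regions the deposited monocyte lists held 10.4%, 8.82%, 16.2%, 13.0% and 13.9% and the deposited progenitor lists 96.4%, 97.4%, 98.1%, 90% and 87.0%. Of those 692 regions, 461 were peaks in none of the 5 deposited monocyte lists. Monocyte lists were shorter than the progenitor lists of the same clones, and the part of list length in these shares was not tested. Among the late monocyte lists, the longest (clone 20, 38786 peaks) held the lowest share of the monocyte-higher regions. The shortest (clone 18, 10966 peaks) held the highest. For the progenitor-higher regions it was the reverse, with clone 20 highest and clone 18 lowest.

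Single regions show both outcomes. A total of 12 regions per direction were in all 13 lists of 1 stage and 0 of the other in clones 1 to 13 (adjusted p = 9.95e-05, Fisher's exact test), and 8 per direction, taken in order of position, are described. Among the progenitor-higher ones, chr2:172196345-172196529 and chr5:129525477-129525623 were in 0 late monocyte lists and 5 late progenitor lists. The region chr13:43356720-43356933 was in 0 and 4, and chr7:52622781-52623070 was in 1 and 5. The weakest of the 8, chr4:125879555-125879785, was in 2 monocyte and 3 progenitor lists. Among the monocyte-higher ones, chr14:58364830-58365106 was in the monocyte lists of clones 18 and 25 and in 0 progenitor lists, and 5 of the 8 were in no late monocyte list, among them chr2:30061196-30061528, which was a peak of 0 deposited monocyte and 5 deposited progenitor lists. The most uniform progenitor-side regions of clones 1 to 13 thus kept their direction in 8 of 8 cases, and the most uniform monocyte-side ones in 3 of 8. Of all 12419 tested regions, 57.5% were in fewer late monocyte than progenitor lists and 15.6% in more, so the directions have unlike backgrounds.

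Ranks were compared among peaks present in every list, so the shortest lists decided which regions entered. Over the 3014 regions that were peaks in all 36 deposited lists, each library's first scores were turned into percentile ranks from 0 to 100, and the monocyte rank minus the progenitor rank was taken within each clone. These regions are open in both stages, so the measure is of relative strength among shared peaks. The ranks of late monocytes rest on few tags, with medians of 16, 32, 21, 25 and 47 per region in clones 16, 18, 20, 21 and 25, against 518, 899, 714, 41 and 31 in the late progenitors. In clones 1 to 13 these medians ran from 48 to 487 in monocytes and 40 to 887 in progenitors. The spread of the differences across regions was wider in the late clones, with SDs of 31.1 to 33.9 points against 18.6 to 29.5 points in clones 1 to 13.

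In the late clones the limma test with Benjamini-Hochberg adjustment called 388 regions higher in monocytes (12.9% of 3014) and 419 lower (13.9%). On a log2 scale of the first score the split was 592 higher and 427 lower. Leaving out clone 18 gave 215 and 216, and leaving out clone 16 gave 245 and 267. Ranking by the authors' second score, whose meaning is not given in the sources used here, left 2 higher and 1 lower.

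The direction of the shared peaks recurred more often than not. Clones 1 to 13 called 724 regions higher in monocytes (24%) and 670 lower (22.2%). Of the 724, 543 (75%) had a positive mean difference in the late clones, against 49.6% of all 3014 regions. Of the 670, 513 (76.6%) had a negative one, against 50.4%. The same sign in all 5 late clones was found for 235 of the 724 (32.5%, background 16.9%) and 242 of the 670 (36.1%, background 17.8%). Late calls in the same direction numbered 205 (28.3%) and 206 (30.7%), against 12.9% and 13.9% of all 3014 regions. Late calls in the opposite direction numbered 22 (3.04%) and 17 (2.54%). Without clone 18 the same-direction calls were 117 and 114 and the opposite ones 10 and 8, with 215 and 216 called of all 3014. On the log2 scale they were 274 and 217 against 36 and 83, with 592 and 427 called of all. Clones 16, 18 and 20 alone gave 89 and 81 against 6 and 4, with 161 and 156 called of all. The second score gave 1 and 0 against 0 and 0, with 2 and 1 called of all. The median differences of the 2 lists were 14.8 and -15.7 points in the late clones and 18.7 and -20.1 points in clones 1 to 13, where the same values had chosen the regions. Across the 3014 regions the mean differences of the sets had r = 0.492, a description across regions that share libraries.

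**Figure D3:**
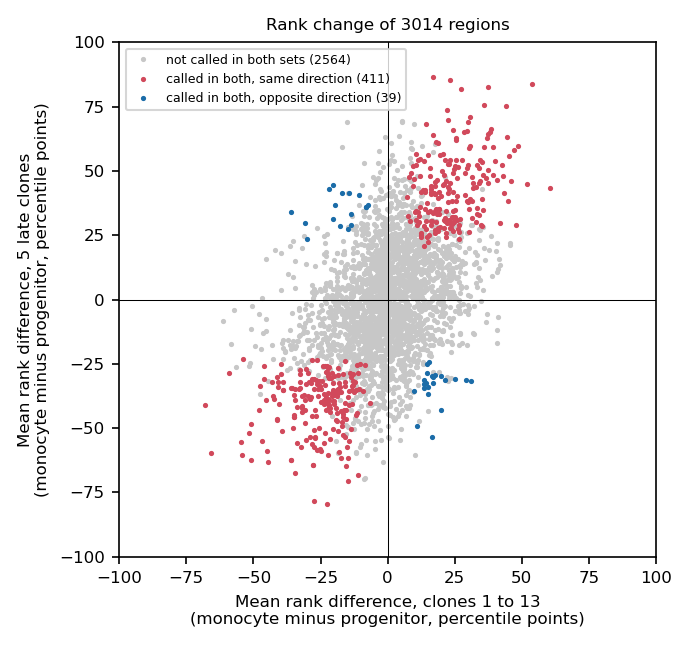
Mean rank difference, monocyte minus progenitor in percentile points, of 3014 regions in the 5 late clones (vertical) and in clones 1 to 13 (horizontal), each point 1 region. Of the 450 regions called in both sets, 411 (red) lie in the quadrants of equal direction and 39 (blue) in those of opposite direction; without clone 18, or on another score scale, both counts change as given above.

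Each late clone showed the same tendency. The 724 regions were higher in monocytes for 69.3%, 75.4%, 62.4%, 72.7% and 68.0% of regions in clones 16, 18, 20, 21 and 25, with median differences of 15.1, 17.2, 8.60, 16.8 and 13.4 points. The 670 regions were lower for 68.7%, 76.0%, 69.4%, 72.8% and 70.1%. Clone 18 was highest in both directions and clone 20 lowest for the raised regions. In clones 1 to 13, which chose these regions, the share of equal sign ran from 60.9% to 96.3% for the raised ones and from 59.7% to 97.2% for the lowered ones, and clone 11 gave the lowest raised value.

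The shallow progenitor libraries of clones 21 and 25 did not set these clones apart in the share of directions that recurred. The mean difference of clones 21 and 25 had the direction of clones 1 to 13 in 71.8% of the raised and 75.7% of the lowered regions, with medians of 16.2 and -15.6 points. The mean difference of clones 16, 18 and 20, whose progenitor libraries were deep, had it in 72.8% and 76.1%, with medians of 13.7 and -16.2 points. The shares of these groups of clones, split by relative depth, lay close together, and their difference was not tested. By median tags per ranked region, clone 21 had fewer in its monocytes (25 against 41 in progenitors). Clone 25 had fewer in its progenitors (31 against 47 in monocytes). Split by tags, clone 21 would fall with clones 16, 18 and 20, and that split was not made. Fitted alone, clones 16, 18 and 20 called 161 regions higher and 156 lower.

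The 12 regions with the largest rise among those that rose in all 13 of clones 1 to 13 all had a positive mean difference in the late clones, and 8 of them were called there. Of all 3014 regions 49.6% had a positive late mean and 12.9% were called higher. By the second score 4 of the 12 means were negative. At chr8:13159081-13159300 the late monocyte ranks were 99, 100, 98, 91 and 99, against 11, 21, 28, 23 and 27 in the late progenitors. The groups did not overlap, and the mean difference was 75.5 ± 7.07 points (limma SE, n = 5 clones, adjusted p = 0.000672), against 44 points in clones 1 to 13. The tags behind those ranks numbered 45, 258, 47, 48 and 214 in monocytes and 258, 612, 560, 27 and 23 in progenitors. At chr10:62801693-62801976 the monocyte ranks were 94, 95, 64, 84 and 93, against 10, 16, 18, 25 and 46 in progenitors. That region also did not overlap between the groups, with a mean difference of 63.2 ± 8.38 points (adjusted p = 0.00153) against 44.6 points in clones 1 to 13. At chr4:148681806-148682061, the region with the largest rise in clones 1 to 13, the differences were 61.3, 44.2, 52.0 and 60.2 points in clones 16, 18, 20 and 21 and -0.863 points in clone 25. Its late mean of 43.4 ± 9.99 points, against 60.4 points in clones 1 to 13, was called (adjusted p = 0.0133) and was no longer called without clone 16.

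**Figure D4:**
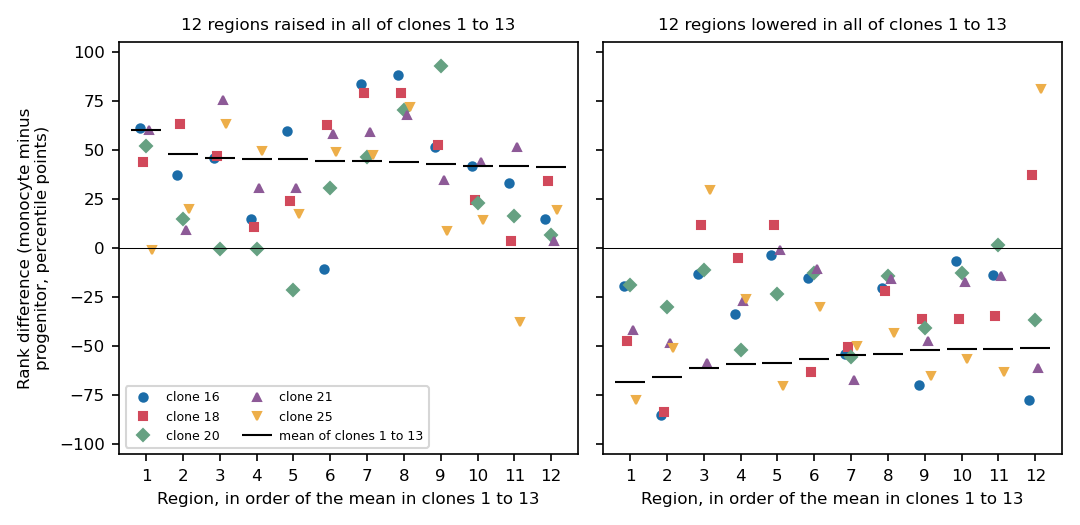
Rank difference, monocyte minus progenitor in percentile points, in each late clone (coloured symbols) at the 12 regions with the largest mean rise (left) and the 12 with the largest mean fall (right) among regions of 1 direction in all of clones 1 to 13, whose mean is the black bar. Region 8 on the left is chr8:13159081-13159300, where the 5 clones lie between 67.9 and 88.3 points, and region 12 on the right is chr1:132922483-132922758, where they run from -77.5 to 81.1 points.

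The 12 regions with the largest fall had a negative mean difference in the late clones in 12 of 12 cases, and 6 were called. Of all 3014 regions 50.4% had a negative late mean and 13.9% were called lower. By the second score 2 of the 12 means were positive. At chr10:121534012-121534551 the monocyte ranks were 46, 45, 29, 30 and 40, against 100, 96, 85, 97 and 90 in progenitors, a mean difference of -55.4 ± 6.95 points (adjusted p = 0.00147) against -54.7 points in clones 1 to 13. At chr17:23735992-23736325 the monocyte ranks were 1, 4, 3, 2 and 2, against 71, 40, 44, 50 and 67 in progenitors, and the mean difference was -51.8 points in both sets (late SE 7.94, adjusted p = 0.00263). Neither region overlapped between the stages, and at both the size was nearly equal in the sets. The late monocyte ranks rest on 15, 30, 17, 19 and 41 tags at the chromosome 10 region. At the chromosome 17 region they rest on 8, 13, 11, 11 and 17 tags. Single tags weigh much there, since in clone 16 monocytes 10 tags gave a rank of 8.36 and 11 tags a rank of 15.4. At chr11:23397937-23398343 the differences were -85.1, -83.4, -30.0, -48.2 and -50.9 points in clones 16, 18, 20, 21 and 25, with a mean of -59.5 ± 9.63 (adjusted p = 0.00329). Other large falls of clones 1 to 13 did not carry over. The region chr1:80337046-80337660 had a late mean of -8.30 points, with positive differences in clones 18 and 25, against -61.2 points in clones 1 to 13, and the test of late against early clones gave 52.9 ± 11.5 points (limma, adjusted p = 0.0024). Without clone 21 its late mean was 4.29 points. At chr1:132922483-132922758 the late clones split, with -77.5, -36.6 and -61.1 points in clones 16, 20 and 21 and 37.2 and 81.1 points in clones 18 and 25. Its late mean of -11.4 points was 5.15 points without clone 16, 1.05 points without clone 21 and 59.1 points in clones 18 and 25 alone (limma, adjusted p = 0.0187).

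Of the 14 called regions among these 24, 7 kept the call whichever late clone was left out. They were the regions on chromosomes 8, 10, 11 and 17 whose ranks or differences are given above, together with chr9:42072324-42072546 (46.3 points) and chr7:7230726-7231222 (48.2 points). The second score reversed the last of these, to -34.3 points. The call at chr18:67448534-67448899 (-40.8 points) was lost without clone 18. Calls were lost without clone 16, 18 or 21 at chr16:5049937-5050181, without any 1 of clones 18, 20, 21 and 25 at chr19:53674415-53674709, and without any 1 of clones 16, 20, 21 and 25 at chr17:57097534-57097770. The calls at chr10:82092421-82092737 and chr5:141124856-141125226, with adjusted p = 0.0433 and 0.0472, were lost on leaving out any clone.

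The largest late differences lay at regions that moved less in clones 1 to 13. The 8 largest rises with 1 sign in all 5 late clones spanned 73.9 to 86.7 points, and the same regions spanned 16.8 to 54.0 points in clones 1 to 13. The largest, at chr11:69813910-69814186, had monocyte ranks of 99, 99, 74, 99 and 99, against 3, 13, 10, 2 and 10 in progenitors, a difference of 86.7 ± 7.66 points (adjusted p = 0.000499), against 16.8 points in clones 1 to 13. At chr1:75139141-75139446 the late difference was 83.8 ± 7.06 points and that of clones 1 to 13 was 54.0 points. The 8 largest falls spanned -79.7 to -64.6 points in the late clones and -34.6 to -8.42 points in clones 1 to 13. The largest of those, chr3:153575814-153576099, had monocyte ranks of 15, 1, 9, 7 and 2, against 95, 89, 66, 90 and 93 in progenitors. Its monocyte ranks rest on 11, 10, 13, 13 and 17 tags. All 16 regions had the same direction in both sets, whereas 1028 of all 3014 regions had opposite directions. The larger late size of the 16 is partly fixed by their being chosen for it.

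The difference between the sets was tested directly. The rank change differed between late clones and clones 1 to 13 at 779 regions (limma, adjusted p under 0.05), 382 (12.7% of 3014) shifted towards monocytes in the late clones and 397 (13.2%) shifted away. That fit used 1 estimate of the spread for both sets, although the spread was wider in the late clones. With a spread estimated for each set, an alternative added after seeing the data, 458 regions were called, 223 shifted towards monocytes and 235 away, and 451 of them were among the 779. The 382 regions had a median difference of 30.9 points in the late clones and -1.66 points in clones 1 to 13, and the 397 had -30.0 and 4.80 points. The movement was mostly on the monocyte side. The shift between the sets was larger in monocyte than in progenitor ranks at 329 of the 382 and 328 of the 397 regions, against 2001 of all 3014. The sets differ in clone number, in tags per ranked region of the monocyte libraries and in any batch the numbers stand for. These cannot be told apart. Median tags per region were 16 to 47 in late monocytes and 48 to 487 in monocytes of clones 1 to 13. The relative depth of the same libraries was 0.653 to 1.43 and 0.416 to 0.845. That depth rests on reading 1 step as 1 tag, and its part in the difference was not tested.

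At chr5:33016088-33016371, the region with the smallest p for this difference, late monocyte ranks were 87, 67, 74, 70 and 66, against 14, 10, 4, 13 and 8 in late progenitors. Those monocyte ranks rest on 24, 40, 27, 32 and 60 tags. In clones 1 to 13 the mean ranks there were 14 in monocytes and 15.1 in progenitors, so a site that ranked low in both stages of clones 1 to 13 ranked high in late monocytes. The difference between the sets was 64.2 ± 4.86 points (adjusted p = 3.83e-08), or ± 7.36 points with a spread per set (adjusted p = 0.000806). Both chr9:113617135-113617472 and chr5:124482049-124482437 had the same form, with late differences of 69.2 and 60.9 points against 5.35 and 1.27 points in clones 1 to 13. A reversal was found at chr14:9005450-9005821, where the late difference was -53.5 ± 7.92 points and that of clones 1 to 13 was 16.6 points (difference between the sets -70.1 ± 7.36, adjusted p = 4.22e-06, or ± 8.69 with a spread per set, adjusted p = 0.000707). At chr2:166630912-166631135 it ran the other way, 41.5 points in the late clones and -16.9 points in clones 1 to 13.

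Shared changes were spread over the chromosomes, with a few dense stretches. Of 3014 regions, 6.8% were called higher in monocytes in both sets and 6.83% lower in both. In the 1-Mb window chr17:27000001-28000000, 4 of 7 ranked regions were higher in both sets and 0 were lower, and in chr5:115000001-116000000, 4 of 9 were higher and 0 lower. These windows were picked after their counts were seen, and no test was made of them. Within the first, chr17:27076418-27076782 had monocyte ranks of 96, 98, 93, 99 and 98, against 23, 59, 70, 21 and 83 in progenitors, a difference of 45.3 ± 10.7 points in the late clones and 31.8 points in clones 1 to 13. Within the second, chr5:115460954-115461215 had 82.5 ± 7.06 points in the late clones and 37.5 points in clones 1 to 13, and chr5:115223423-115223655 had 58.2 ± 9.09 and 47.1 points.

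The median rank difference of a chromosome's regions, a comparison added after seeing the data, also differed between the sets. It was compared over clones by an exact two-sided permutation of late and early clones (8568 arrangements), with p-values adjusted over 20 chromosomes. On chromosome 11 the late clones had medians of 15.8, 8.63, 1.84, 12.6 and 5.67 points in clones 16, 18, 20, 21 and 25. The median was above 0 in 5 of 5 late clones and in 12 of 13 of the other clones. The mean of clones 1 to 13 was 2.46 ± 1.78 points (SD, n = 13). The late mean was 8.92 ± 5.53 points (SD, n = 5), higher by 6.45 points (exact permutation, adjusted p = 0.0134). Clones 20 and 25 lay within the range of clones 1 to 13, which was -1.06 to 5.91 points. The late spread was the wider one, and the permutation makes no allowance for unequal spread. On chromosome 6 the late medians were -1.69, -5.37, -3.88, -1.38 and -5.91 points, below all 13 of the other clones, whose lowest was -0.232. The late mean was lower by 5.21 points (exact permutation, adjusted p = 0.00117), and chromosome 12 was lower by 6.79 points with the same adjusted p. Both sets had their most negative chromosome median, as a mean over clones, on chromosome 18, at -9.37 ± 3.70 points in the late clones (SD, n = 5) and -5.92 ± 4.31 points in clones 1 to 13 (SD, n = 13). That difference did not pass the test (exact permutation, adjusted p = 0.225). With clones 16, 18 and 20 alone chromosomes 6 and 12 were still called and chromosome 11 was not, and with the second score no chromosome was.

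Chromosome 17 was uneven among the late clones. Its median difference was 13.0, 9.17, 3.16, 9.56 and 27.9 points in clones 16, 18, 20, 21 and 25, against a range of -4.74 to 8.30 points in clones 1 to 13. The monocyte list of clone 25 held 8.19% of its regions on chromosome 17, against 4.51% to 5.09% in the other late monocyte lists. The late mean was above that of clones 1 to 13 by 9.14 points (exact permutation, adjusted p = 0.0134), and by 5.30 points without clone 25, where it was not called (adjusted p = 0.0874).

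**Figure D5:**
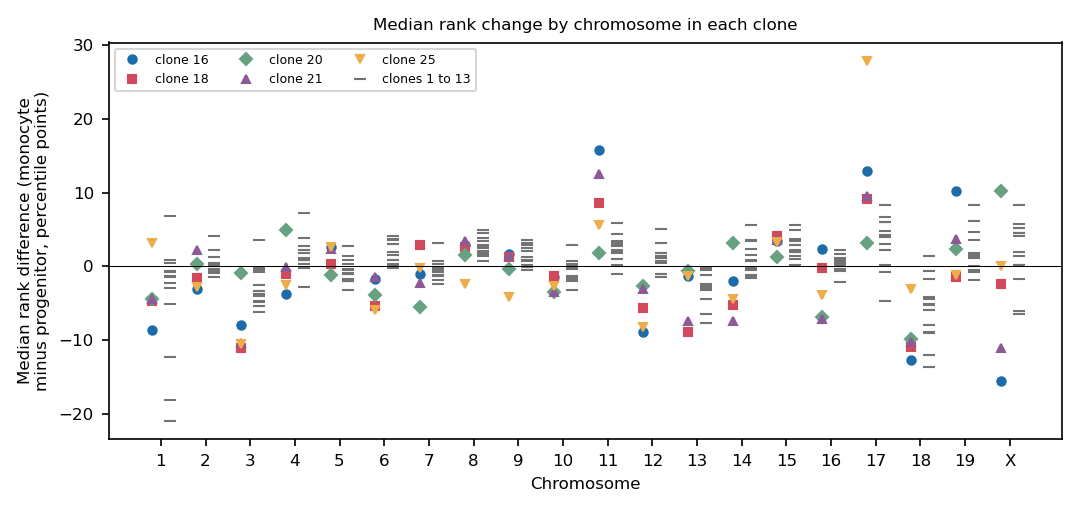
Median rank difference, monocyte minus progenitor in percentile points, over the ranked regions of each chromosome; coloured symbols are the 5 late clones and grey bars clones 1 to 13. Clone 25 lies at 27.9 points on chromosome 17. On chromosome 11 late clones lie above 0 in 5 of 5 cases and clones 1 to 13 in 12 of 13, and on chromosome 6 late clones lie below all of clones 1 to 13.

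A small group of regions was shared by the cut lists of all late monocytes and missing from every other cut list. Among the cut lists of the 36 libraries, 42 regions were in all 5 late monocyte lists, in no late progenitor list and in no list of clones 1 to 13. A further 83 were in 4 late monocyte lists and 329 in 3, on the same conditions. The 42 regions lay on 16 chromosomes or unplaced sequences, 40 of them on named chromosomes. Some lay close together, as chr8:56206299-56206453 and chr8:56206777-56206931 did. Others, chr3:3001756-3001909, chr4:3018541-3018704 and chr18:3010271-3010442, lay near the low-numbered end of their chromosomes. The 42 regions were 153 to 480 bp wide, and the most common peak width of the late monocyte lists was 138 to 150 bp. Whether repeated sequence or read mapping shaped these peaks was not tested. In the lists as deposited, 28 of the 42 were peaks in no monocyte list of clones 1 to 13, whereas 10 were peaks in none of their progenitor lists and 12 in no late progenitor list. At chr3:122011322-122011483, for instance, the late monocyte lists held 65, 58, 126, 39 and 80 tags, which placed the region at positions 65, 637, 79, 713 and 907 of those lists, while 0 monocyte lists and 11 progenitor lists of clones 1 to 13 held it as a lower peak. The region was chosen after its values were seen.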

How the data were processed

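ATAC-seq peak lists of 10 late libraries and the 26 libraries of clones 1 to 13 were used. The authors' deposited lists hold, per peak, mm9 coordinates and a pair of scores with no header. Reads were aligned to mm9 with BWA, per the submitters' processing notes; the BWA version, peak caller, filters and any transposase shift were not given in the sources used here. In the late lists, 92.4% to 100% of deposited first scores under 40 steps were whole multiples of the step, with a tolerance of 0.1 step.

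From these lists, presence among the 10000 highest peaks was tested with Fisher's exact test (regions in at least 3 of 10 late or 5 of 26 early lists), and percentile ranks with limma 3.58.1 in R 4.3.3, both with Benjamini-Hochberg adjustment at 0.05; Python 3.11.15 and scipy 1.17.1 did the rest. The series design pairs libraries by clone, so ranks were fitted as differences within clones, and presence without pairing. Regions are named by position: the largest and most uniform rank changes of clones 1 to 13 (12 per direction), the largest of the late clones (8 per direction), the 8 smallest p for late against early clones, and 8 per direction by presence; other regions were chosen after their values were seen. The members and lists were chosen with earlier results of these data known. Alternatives varied list length, region definition, score, scale, pairing, spread and clones.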

Additional observations from a re-analysis of the deposited data

Results flagged for a closer look

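Among 96 sets of late values examined for a sample far from the rest, 5 held one, and chance alone gives about 1 in 20. The monocyte list of clone 20 was the longest, with 38786 peaks against 10966 to 17591 in the other 4. The monocyte list of clone 25 had 8.19% of its regions on chromosome 17, against 4.51% to 5.09% in the others. On chromosome 15 the median rank difference of clone 20 was 1.34 points, below the 3.37 to 4.11 points of the other late clones. At chr4:148681806-148682061 clone 25 had a difference of -0.863 points, against 44.2 to 61.3 points elsewhere. At chr5:141124856-141125226 clone 25 had -43.2 points, against -21.6 to -14.2 points in the other late clones.

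The rank change of late clones differed from that of clones 1 to 13 at 779 regions by limma's test of the difference, and at 458 with a spread estimated for each set. By exact permutation with adjustment over 20 chromosomes, the chromosome median of late clones differed on chromosomes 3 (-5.40 points), 6 (-5.21), 11 (6.45), 12 (-6.79), 14 (-4.11), 16 (-3.60) and 17 (9.14). The permutation makes no allowance for unequal spread in the sets. In libraries outside these comparisons, 31 of the 42 regions held by all 5 late monocyte cut lists and no other cut list were peaks in at least 3 of the other 6 monocyte lists of the series. How many regions in general were peaks in at least 3 of those lists was not counted. Singly, those lists held 1.47% to 40.9% of the 12419 regions tested in clones 1 to 13.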

How the results depend on the processing

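With no replicate block the peak number ratio stayed 3.93 and the similarity difference 0.0945, while their exact permutation p moved from 0.0625, the smallest that 5 pairs allow, to 0.0238 and 0.00794; limma called 425 regions higher, 438 lower and 750 different between the sets. With a replicate block, an exact sign test in clones 1 to 13 called 329 monocyte-higher and 231 progenitor-higher regions by presence, in place of 970 and 692, of which 69.3% and 93.9% recurred. In the late clones the sign test over 5 pairs cannot pass 0.05, so its 0 calls carry no information. Leaving out 1 late clone at a time gave peak number ratios of 2.99 to 5.04, 215 to 347 regions higher in rank, 216 to 355 lower and 616 to 792 different between the sets, with same-direction shares of 73.8% to 75.6% and 76.1% to 77.8%, and presence recurrence of 53.0% to 66% on the monocyte side and 85.1% to 87.1% on the progenitor side.

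Clones 16, 18 and 20 alone gave 161 and 156 calls. Keeping 11377 regions that were peaks in at least 30 of 36 lists gave 1303 and 1391 calls and 2941 differences between the sets, and moved 23 of the 36 called named regions by over 1.5 times, among them chr8:13159081-13159300 to 42.5 points and chr10:121534012-121534551 to -22.3 points. A spread per set gave 458 differences between the sets. The log2 scale gave 592 calls higher and a same-direction share of 64.9% for lowered regions. The second score gave 2 and 1 calls, 1 difference between the sets and 82.5%. Lists of 20000, possible for clone 20 alone, gave presence recurrence of 2.53% and 72.2%, against 1.29% and 54.0% of all tested regions. Without clones 16, 20 and 21, chosen after seeing the data, progenitor-side recurrence was 69.8%, against 30.4% of all tested regions, where all 5 clones gave 87.7% against 57.5%. Apart from the spread per set, why these values moved was not tested.

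The second score reversed chr7:7230726-7231222 (-34.3 points), chr18:67448534-67448899 (8.64), chr17:33961413-33961632 (-10.6), chr5:36924539-36924801 (15.5), chr13:90229152-90229396 (11.5) and chr14:9005450-9005821 (0.551), all called before, and 4 regions that were not called, chr9:59503827-59504374 (-19), chr2:119980277-119980535 (-16.4), chr19:45005363-45005845 (-30.1) and chr11:20531747-20532164 (40.1). It also reversed chromosomes 12 (0.563), 14 (1.75) and 16 (1.30). Without clones 16, 20 and 21, chr2:119980277-119980535 (-17), chr1:80337046-80337660 (20.6) and chr1:132922483-132922758 (59.1) changed sign. Leaving out 1 late clone at a time, chr1:80337046-80337660 ran from -17.8 to 4.29 points, positive without clone 21, and chr1:132922483-132922758 from -34.5 to 5.15, positive without clone 16 or 21 (1.05). Of the other values of named regions, 442 kept direction and call, 74 lost the call and 7 gained it. Chromosomes 3, 14 and 16 lost their calls under 6 or more of the 10 alternatives. Late monocyte ranks rest on medians of 16 to 47 tags per region and late progenitor ranks on 31 to 899. The part of tag number and of depth in these results was not tested.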

Other observations

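The monocyte lists of the other 6 clones numbered above 13, clones 15, 17, 19, 22, 23 and 24, held fewer than 10000 peaks and took no part in finding the regions above. As deposited they held 28, 26, 27, 4, 32 and 28 of the 42 regions held by all 5 late monocyte cut lists and no other cut list, in lists of 7378, 5856, 4642, 231, 6227 and 4464 peaks. The progenitor lists of the same clones held 13, 21, 22, 10, 10 and 18 of the 42, in lists of 69706 to 136322 peaks. Of the 12419 regions tested in clones 1 to 13, which do not include the 42, the monocyte lists held 1.47% to 40.9%. The progenitor lists held 98.8% to 99.3% of those tested regions. The monocyte list held more of the 42 in 5 of 6 clones, clone 22 with 231 peaks being the exception. Every monocyte list was the shorter one, and the part of list length was not tested. The 42 were chosen for presence in monocyte and absence from progenitor cut lists of other clones, a choice that favours this direction.

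The monocyte-higher and progenitor-higher regions of clones 1 to 13 were also looked up there. The 6 monocyte lists held 50%, 29.3%, 1.96%, 0.515%, 20.8% and 18.9% of the 970 monocyte-higher regions, and 8.24%, 9.68%, 3.76%, 1.73%, 9.10% and 8.53% of the 692 progenitor-higher regions. Their shares of all 12419 tested regions were 40.9%, 40%, 8.16%, 1.47%, 39.4% and 27.9%. Clone 15 thus held more of the monocyte-higher regions than of regions in general, and the other 5 clones held fewer. On the progenitor-higher side clone 22 alone was above its share of all regions. The lists differ in length, and no test was made.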
